A study of Homo sapiens with 44 samples.

Results

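MYC, MYB and CCND1 are 3 of the 14884 named genes measured on the arrays, taken by their symbols in the array annotation and followed across all 14 groups of the experiment. Each of the 3 had 1 transcript cluster, the set of probes that stands for a gene on this array. ZR-75-1, an established line of luminal breast cancer cells with receptors for both estrogen and progesterone, was cultured in hormone-depleted medium before treatment. Estrogen pretreated cells (E2p) had 10 nM estradiol (E2) for 72 h and then received a hormone overlay added to the medium already on the cells, so E2 from the priming step was not washed out. The E2p groups received 10 nM medroxyprogesterone acetate (MPA) for 4, 8 or 16 h, 10 nM progesterone (P4) for 4, 8 or 16 h, E2+MPA, E2+P4 or E2 for 16 h at 10 nM each, or ethanol vehicle for 0, 4, 8 or 16 h. Unprimed cells had vehicle in both steps, the overlay lasting 16 h. There were 5 arrays for E2+P4 and 3 for each of the other 13 groups, 44 in all. All groups come from 1 cell line, so they model no normal mammary tissue. The labels do not say that replicates came from separately grown cultures, and p-values therefore cover no more than array-to-array spread here, which may be technical.

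MYC encodes a transcription factor that pairs with MAX and drives genes of ribosome production, nucleotide synthesis and cell growth. MYB encodes the transcription factor c-MYB, best known from blood cell progenitors and also expressed in estrogen receptor positive breast cancer, where transcription of the gene is controlled through a pause in its first intron. CCND1 encodes cyclin D1, the regulatory partner of the kinases CDK4 and CDK6, which phosphorylate the retinoblastoma protein early in the cell cycle. All 3 are well known estrogen-induced genes of breast cancer cells.

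Only MYB had an entry in the RefSeq promoter sequences used here, and its upstream part is shown because MYB was the member with the widest range of levels. The 250 bases before the MYB start site lie at chr6:135181058-135181307 on the plus strand of GRCh38.p14, and capitals mark the letters TTTGGCGG.
MYB: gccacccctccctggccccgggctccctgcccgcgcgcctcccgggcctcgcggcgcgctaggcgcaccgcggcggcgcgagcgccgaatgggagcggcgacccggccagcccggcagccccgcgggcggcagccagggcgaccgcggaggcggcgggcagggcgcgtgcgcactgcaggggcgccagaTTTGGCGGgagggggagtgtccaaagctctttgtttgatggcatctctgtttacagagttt
The window of 300 bases that also takes in the 50 bases after the start had a GC content of 71.0%. On both strands it held 0 matches to AGAACA (1 arm of a progesterone response element, found in 14.8% of the 35116 windows of the same length), 0 to GGTCA (1 arm of an estrogen response element, 37.4% of windows) and 0 to CACGTG (an E-box, 7.26%). TTTGGCGG, letters of a site for E2F factors that were added to the search after the sequence had been seen, occurred once, 61 bases before the start, and in 0.652% of all windows. None of these 4 motifs overlapped another. A match or its absence describes these letters in this window alone.

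The values are log2 signals after robust multi-array averaging (RMA), so a difference of 1 is a 2-fold difference. All 3 genes lay above the 30th percentile of the array on all 44 arrays. Array medians lay between 5.52 and 5.67 and interquartile ranges between 2.89 and 3.14. Replicate 1 of the 4 h vehicle group stood apart by the lowest correlation to the other arrays of its group, 0.961. Values without it are given for the 4 h comparisons. Replicate 3 of that group came next, with a correlation of 0.975 and the highest interquartile range, 3.14. The 4 h vehicle group had the widest spread of the 14 groups (root mean square 0.35). Of the luminal epithelial markers, 8 of the 8 named on the array were above the 30th percentile on all 44 arrays, with mean levels from 7.57 to 11.7, whereas the 2 named fibroblast markers, DCN and LUM, were below it on all arrays. Of 3 basal, 3 endothelial and 3 immune markers, 2 each were above it on all 44 arrays. A change was called regulated at a Benjamini-Hochberg adjusted p of at most 0.05 of the Bayesian moderated t-statistic (limma) fitted over 41374 clusters, and errors of changes are standard errors (SE) of that fit.

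The 3 genes did not take the same course over the groups. MYB had the widest range of group means, 2.51 log2 units, which exceeded that of 99.1% of named genes. MYC ranged over 1.34 units (93.7%) and CCND1 over 0.68 units (70.7%). Over the 14 group means, which share arrays of 1 cell line and 1 normalization, Pearson's r was 0.71 between MYC and MYB, 0.20 between MYC and CCND1 and -0.52 between MYB and CCND1. These correlations are descriptions of 14 points.

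**Figure D1:**
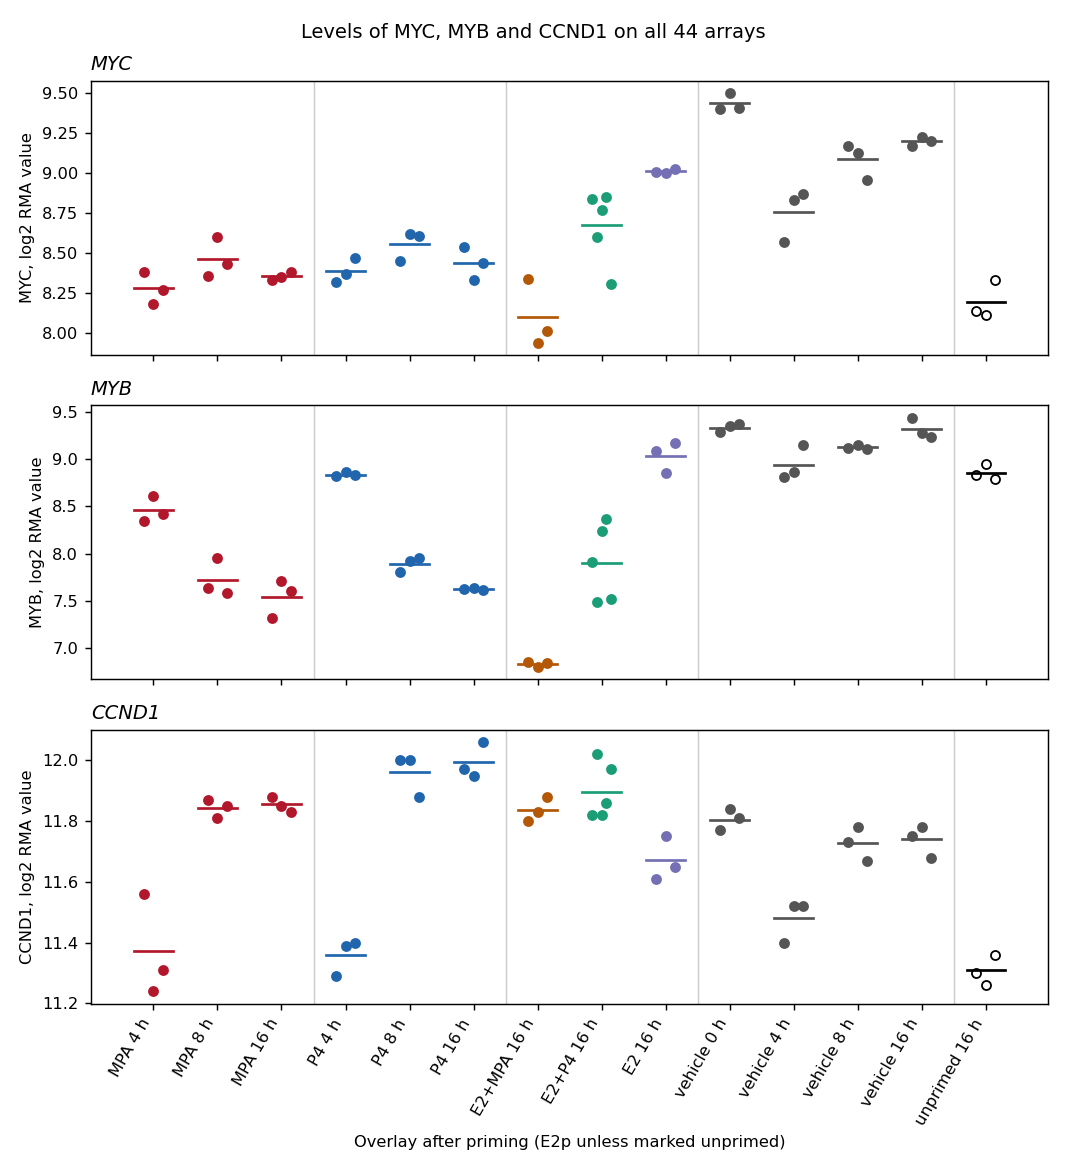
Log2 RMA values of MYC, MYB and CCND1 (vertical axes, 1 panel per gene, each with its own range that does not start at 0) on all 44 arrays, by group along the horizontal axis. Points are arrays and short lines are group means; MYB is lowest under E2+MPA, between 6.80 and 6.85, while CCND1 has its lowest mean in unprimed cells (arrays 11.26 to 11.36).

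Estrogen priming was compared between E2p and unprimed cells that both had vehicle for the last 16 h, and all 3 genes were higher after priming, where 7.5% of all clusters were regulated, 2.55% higher and 4.95% lower. MYC, the growth-promoting transcription factor, had values of 9.17, 9.23 and 9.20 in E2p cells, against 8.14, 8.11 and 8.33 in unprimed cells. The groups did not overlap, and the change was 1.01 ± 0.11 (adjusted p = 1.9e-08), a 2.01-fold higher signal. CCND1, the cyclin, had values of 11.75, 11.78 and 11.68 in E2p cells, against 11.30, 11.26 and 11.36 in unprimed cells. The change of CCND1 was smaller, 0.43 ± 0.07 (adjusted p = 3.33e-05), or 1.35-fold, again with no overlap. MYB had values of 9.44, 9.28 and 9.24 in E2p cells, against 8.83, 8.95 and 8.79 in unprimed cells. Its change of 0.47 ± 0.15 passed the test narrowly (adjusted p = 0.0496) and did not pass it when any 1 of the 6 arrays was left out (adjusted p between 0.0735 and 0.149). As these are whole cultures, a higher share of cells with a transcript and more transcript per cell cannot be told apart here or below.

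Vehicle overlays of 0 to 16 h were compared in E2p cells, to show what the levels did without added hormone. The authors staggered the start of the overlays and collected all samples together, so each time is a separate set of samples. MYC dipped at 4 h. Its values were 9.40, 9.5 and 9.41 at 0 h, 8.57, 8.83 and 8.87 at 4 h, 9.17, 9.13 and 8.96 at 8 h, and 9.17, 9.23 and 9.20 at 16 h. The 4 h arrays lay under those of every other vehicle time, and the change from 0 h was -0.68 ± 0.11 at 4 h (adjusted p = 0.000226), a comparison in which 1.51% of clusters were regulated. The changes of -0.35 ± 0.11 at 8 h (adjusted p = 0.122) and -0.24 ± 0.11 at 16 h (adjusted p = 0.484) did not pass the test, where 1.42% and 1.03% of clusters did. CCND1 had the same low point, with 11.77, 11.84 and 11.81 at 0 h and 11.40, 11.52 and 11.52 at 4 h, a change of -0.32 ± 0.07 (adjusted p = 0.00698), and means of 11.73 and 11.74 at 8 and 16 h. MYB averaged 9.34 ± 0.04, 8.94 ± 0.18, 9.13 ± 0.02 and 9.32 ± 0.10 (SD, n = 3) at 0, 4, 8 and 16 h, and no vehicle time differed from 0 h by the test. The F-statistic over the vehicle times was 13.4 for MYC (adjusted p = 0.00136), 8.52 for CCND1 (adjusted p = 0.0196) and 3.14 for MYB (adjusted p = 0.391), and 1.94% of clusters passed it. Without the 4 h vehicle array that stood apart, the change of MYC was -0.59 (adjusted p = 0.0055), that of CCND1 was -0.29 (adjusted p = 0.0513), and the F-statistic of CCND1 was 4.95 (adjusted p = 0.144). When the vehicle arrays were fitted by themselves, neither 4 h change passed the test (adjusted p = 0.323 for MYC and 0.68 for CCND1).

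MYC was lower under both progestins at every time against vehicle overlays of the same length. At 4 h its values were 8.38, 8.18 and 8.27 with MPA, 8.32, 8.37 and 8.47 with P4, and 8.57, 8.83 and 8.87 with vehicle. At 16 h they were 8.33, 8.35 and 8.38 with MPA, 8.54, 8.33 and 8.44 with P4, and 9.17, 9.23 and 9.20 with vehicle. No progestin array overlapped the vehicle arrays of its time, and at 16 h the vehicle level was higher than at 4 h while the progestin levels were close to those at 4 h. The changes with MPA were -0.48 ± 0.11, -0.62 ± 0.11 and -0.85 ± 0.11 for 4, 8 and 16 h (adjusted p = 0.00294, 5.78e-05 and 2.89e-07), the last a 1.80-fold lower signal. With P4 they were -0.37 ± 0.11, -0.53 ± 0.11 and -0.76 ± 0.11 (adjusted p = 0.0288, 0.000533 and 2.01e-06), the last 1.70-fold lower. The test of the 16 h against the 4 h effect was not passed for MPA (-0.37 ± 0.15, adjusted p = 0.228) or P4 (-0.39 ± 0.15, adjusted p = 0.145), nor without the 4 h vehicle array that stood apart (-0.28 with MPA and -0.30 with P4, adjusted p = 0.399 and 0.342). The 4 h call for P4 was lost without replicate 1 or 2 of P4 or replicate 2 or 3 of vehicle (adjusted p between 0.0877 and 0.124) and kept without the vehicle array that stood apart (-0.46, adjusted p = 0.00952), as was that for MPA (-0.57, adjusted p = 0.000929).

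MYC in E2p cells with a progestin was next compared with its unprimed level. The 16 h means were 8.36 ± 0.03 with MPA and 8.44 ± 0.10 with P4 in E2p cells, against 8.19 ± 0.12 in unprimed cells (SD, n = 3). The difference was 0.16 for MPA (95% confidence interval -0.06 to 0.38, adjusted p = 0.302) and 0.25 for P4 (0.02 to 0.47, adjusted p = 0.125). Neither passed the test, in comparisons in which 22.8% and 18.8% of clusters did, although the P4 arrays lay above the unprimed arrays without overlap and P4 passed with array weights (0.24, adjusted p = 0.0383). The intervals allow differences of up to 0.38 and 0.47. With fresh E2, in comparisons added after the values had been seen, MYC stood at -0.10 ± 0.11 with E2+MPA against unprimed cells (adjusted p = 0.55) and at 0.48 ± 0.10 with E2+P4 (adjusted p = 0.000314), where 26.8% and 23.2% of clusters were regulated.

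**Figure D2:**
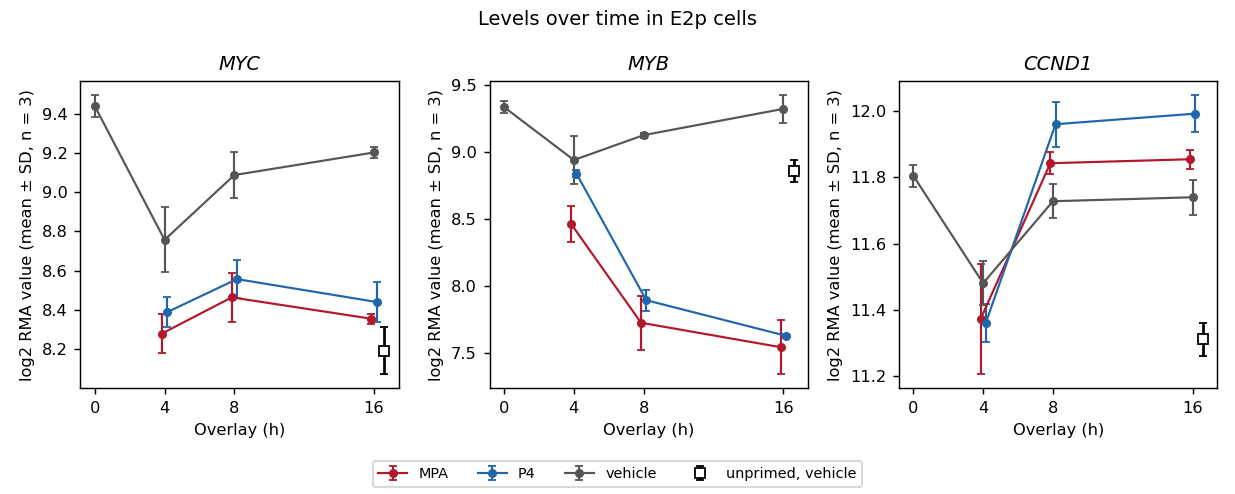
Mean log2 RMA values ± SD (n = 3 per point) against hours of overlay in E2p cells with MPA, P4 or vehicle, with unprimed vehicle cells (16 h, drawn slightly to the right) as open squares; the vertical axes do not start at 0. MYC with either progestin stays between 8.28 and 8.56, MYB falls with time to 7.54 (MPA) and 7.63 (P4) at 16 h, and CCND1 is low in all 3 overlays at 4 h.

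MYB showed the largest progestin change of the 3 genes, and its change at 4 h was small beside that at 8 and 16 h. At 4 h its values were 8.35, 8.61 and 8.42 with MPA, 8.82, 8.87 and 8.83 with P4, and 8.81, 8.87 and 9.15 with vehicle. The P4 arrays lay within the vehicle range (-0.10 ± 0.15, adjusted p = 0.797, and -0.17, adjusted p = 0.717, without the vehicle array that stood apart), whereas the MPA arrays lay below it (-0.48 ± 0.15, adjusted p = 0.0391, and -0.54, adjusted p = 0.0279, without the vehicle array that stood apart). With other vehicle controls MYB was called lower with P4 at 4 h. The change was -0.48 against the 16 h vehicle (adjusted p = 0.0346). It was -0.50 against the 0 h vehicle (adjusted p = 0.0267), a control added after the data had been seen. At 8 h the values were 7.64, 7.95 and 7.58 with MPA, 7.81, 7.92 and 7.95 with P4, and 9.12, 9.15 and 9.11 with vehicle. At 16 h they were 7.32, 7.71 and 7.60 with MPA, 7.63, 7.64 and 7.61 with P4, and 9.44, 9.28 and 9.24 with vehicle. From 8 h on, every progestin array was at least 1 unit under every vehicle array of its time. At 8 h MYB changed by -1.40 ± 0.15 with MPA (adjusted p = 6.33e-09) and by -1.23 ± 0.15 with P4 (adjusted p = 9.62e-08). The 16 h change was -1.78 ± 0.15 with MPA (adjusted p = 2.81e-11) and -1.69 ± 0.15 with P4 (adjusted p = 9.21e-11). At 16 h the signal was thus 3.43-fold lower with MPA and 3.24-fold lower with P4. The 4 h call for MPA was lost without replicate 1 or 3 of MPA or replicate 2 or 3 of vehicle (adjusted p between 0.0647 and 0.23).

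The delay of the MYB change was itself tested. Mean MYB with vehicle stood at 8.94, 9.13 and 9.32 at 4, 8 and 16 h. From 4 to 16 h it went from 8.46 to 7.54 with MPA and from 8.84 to 7.63 with P4. Part of each difference below therefore lies in the higher later vehicle. The 16 h effect minus the 4 h effect was -1.30 ± 0.21 with MPA (adjusted p = 8.21e-05) and -1.59 ± 0.21 with P4 (adjusted p = 2.12e-06), in tests that 4.38% and 6.71% of clusters passed. The 8 h effect minus the 4 h effect was -0.92 ± 0.21 with MPA (adjusted p = 0.0172) and -1.13 ± 0.21 with P4 (adjusted p = 0.0013), passed by 1.16% and 2.17% of clusters. Without the 4 h vehicle array that stood apart, the 16 h differences were -1.24 with MPA (adjusted p = 0.000488) and -1.53 with P4 (adjusted p = 1.67e-05), and the 8 h differences were -0.86 with MPA (adjusted p = 0.0537) and -1.07 with P4 (adjusted p = 0.00638). Unlike MYC, MYB went below its unprimed level, by -1.31 ± 0.15 with MPA and -1.23 ± 0.15 with P4 at 16 h (adjusted p = 1.83e-08 and 7.34e-08). Whether MYC and MYB differ in this was not tested, since the 2 genes are read by different probes.

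At 8 and 16 h CCND1 moved the other way, by less, and against vehicle of the same length it passed the test with P4 alone. At 4 h its values were 11.56, 11.24 and 11.31 with MPA, 11.29, 11.39 and 11.40 with P4, and 11.40, 11.52 and 11.52 with vehicle, and neither progestin differed from vehicle by the test (adjusted p = 0.431 and 0.381, or 0.198 and 0.282 without the vehicle array that stood apart). At 16 h the values were 11.88, 11.85 and 11.83 with MPA, 11.97, 11.95 and 12.06 with P4, and 11.75, 11.78 and 11.68 with vehicle. At 16 h all P4 arrays and all MPA arrays lay above all vehicle arrays. The P4 change was 0.23 ± 0.07, or 1.18-fold, at 8 h (adjusted p = 0.0188) and 0.25 ± 0.07, or 1.19-fold, at 16 h (adjusted p = 0.00829). The MPA change was 0.11 ± 0.07 at 8 h (adjusted p = 0.355) and 0.12 ± 0.07 at 16 h (adjusted p = 0.328), and the direct difference of MPA from P4 at 16 h was -0.14 (-0.28 to 0.00, adjusted p = 0.595), so the 2 progestins were not shown to differ. The P4 call at 16 h was lost without replicate 3 of P4 (adjusted p = 0.0584), and that at 8 h without replicate 1 or 2 of P4 or replicate 1 or 3 of vehicle (adjusted p between 0.05 and 0.0904). Against the 0 h vehicle, a control added after the data had been seen, the P4 changes of CCND1 were -0.45 at 4 h (adjusted p = 1.26e-05), 0.16 at 8 h (adjusted p = 0.142) and 0.19 at 16 h (adjusted p = 0.0554).

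CCND1 stayed above its unprimed level under both progestins. Its 16 h means of 11.86 ± 0.03 with MPA and 11.99 ± 0.06 with P4 stood against 11.31 ± 0.05 in unprimed cells (SD, n = 3). The differences were 0.55 ± 0.07 (adjusted p = 1.64e-07) and 0.68 ± 0.07 (adjusted p = 1.63e-09).

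Of the 3 genes, 2 were regulated by MPA at 4 h, 2 at 8 h and 2 at 16 h, where 8.28%, 14.3% and 16% of clusters were. By direction, 4.16%, 6.3% and 6.72% of clusters were higher with MPA and 4.12%, 7.96% and 9.26% were lower at 4, 8 and 16 h. With P4 the counts of the 3 genes were 1, 3 and 3, where 7.9%, 13.3% and 15.8% of clusters were regulated. Of these, 4.55%, 6.06% and 7.91% were higher and 3.35%, 7.22% and 7.92% were lower. In an F-test (limma) over the 3 P4 times against the 16 h vehicle, on those 12 arrays with an adjusted p threshold of 0.0001, MYB passed (F = 200.7, adjusted p = 3.59e-07) while MYC (F = 38.3, adjusted p = 0.000148) and CCND1 (F = 28.9, adjusted p = 0.000414) did not, and 2.47% of clusters passed.

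MPA and P4 were compared directly at 10 nM, at 3 times and, in the presence of fresh E2, at 16 h, which gave 4 pairs for each of the 3 genes. MPA differs from P4 by an added methyl group and an added acetoxy group on the steroid. Without fresh E2 none of the 9 differences passed the test adjusted over all clusters, in comparisons in which 0.0145%, 0.00242% and 0.0121% of clusters did. The difference of MYC was -0.11, -0.09 and -0.09 at 4, 8 and 16 h, with a 95% interval at 16 h of -0.31 to 0.14. The difference of MYB was -0.38, -0.17 and -0.09, with an interval at 16 h of -0.39 to 0.22. MYB at 4 h was the nearest to a difference, since its 3 MPA arrays (8.35 to 8.61) lay below its 3 P4 arrays (8.82 to 8.87), with an interval of -0.68 to -0.07 before and an adjusted p of 0.379 after correction. These intervals leave room for differences of that size.

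With fresh E2 in the overlay, MYC and MYB were lower with E2+MPA than with E2+P4 by the test. Fresh E2 by itself regulated none of the 3 genes against vehicle (MYC -0.19, MYB -0.28 and CCND1 -0.07, each with an adjusted p of 1), a comparison in which 2 of the 41374 clusters, or 0.00483%, were regulated. MYB had values of 6.85, 6.80 and 6.84 with E2+MPA, of 7.91, 7.49, 8.24, 8.37 and 7.52 with E2+P4, and of 9.09, 8.86 and 9.17 with E2. The 3 groups did not overlap, and E2+MPA gave the lowest MYB of the experiment. MYC had values of 8.34, 7.94 and 8.01 with E2+MPA, of 8.84, 8.60, 8.77, 8.85 and 8.31 with E2+P4, and of 9.01, 9.0 and 9.03 with E2. Here 1 E2+P4 array reached into the E2+MPA range.

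Against E2, the change of MYB was -2.21 ± 0.15 with E2+MPA (adjusted p = 1.43e-13), a 4.62-fold lower signal, and -1.13 ± 0.13 with E2+P4 (adjusted p = 6.14e-08), 2.19-fold lower. The change of MYC was -0.92 ± 0.11 with E2+MPA (adjusted p = 5e-08) and -0.34 ± 0.10 with E2+P4 (adjusted p = 0.0145). The last call was lost without replicate 1 or 3 of E2 or replicate 5 of E2+P4 (adjusted p between 0.0504 and 0.0621). CCND1 was higher by 0.16 ± 0.07 with E2+MPA, which did not pass (adjusted p = 0.0983), and by 0.23 ± 0.06 with E2+P4 (adjusted p = 0.00968), a call lost without replicate 1 or 3 of E2 (adjusted p = 0.0778 and 0.0502, in that order). Thus 2 of the 3 genes were regulated by E2+MPA and 3 by E2+P4, against 19.8% and 13.9% of clusters.

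E2+MPA minus E2+P4 was -1.08 ± 0.13 for MYB (adjusted p = 2.1e-06), -0.58 ± 0.10 for MYC (adjusted p = 0.000171) and -0.06 ± 0.06 for CCND1 (adjusted p = 0.792), where 6.08% of clusters were regulated. Of the 3 immune markers on the array CD68 was higher with E2+MPA than with E2 (0.71 ± 0.14, adjusted p = 0.00028) and stood at 0.04 ± 0.13 with E2+P4, CD14 and LYZ did not pass, and the summed linear signal was 473.1 to 798.4 with E2+MPA and 390.5 to 449.5 with E2+P4, against 371.1 to 434.3 with E2; its part in the difference was not tested. In a fit of these 2 groups alone the MYB and MYC differences did not pass (adjusted p = 0.0841 and 0.146). Whether the distance between the progestins was wider with fresh E2 than without was tested as a comparison added after the values had been seen. The change in the difference was -0.99 ± 0.20 for MYB, which passed (adjusted p = 0.00535, as did 1.76% of clusters). It was -0.49 ± 0.15 for MYC, which did not pass (adjusted p = 0.0851), and 0.08 ± 0.09 for CCND1 (adjusted p = 0.856). For MYC it passed under 5 alternatives (adjusted p between 0.00837 and 0.045). Of these, the replicate block and leaving out replicates 4 and 5 of E2+P4 gave the same change. With 1 array left out, the adjusted p for MYC lay between 0.00807 and 0.335. For neither progestin alone did the effect with fresh E2 differ from that without it by the test (MYB -0.43 ± 0.21 for MPA and 0.56 ± 0.20 for P4, adjusted p = 0.708 and 0.689), in tests that 0.234% and 0.00967% of clusters passed. The MYB difference did not pass in a fit of the 4 groups alone (adjusted p = 0.182).

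The E2+P4 arrays spread widely in MYB, with an SD of 0.40 over the 5 arrays, where the other groups had SDs between 0.01 and 0.20. The SD of MYC was 0.22 with E2+P4 and 0.21 with E2+MPA. Replicates 2 and 5 had the lowest MYC and MYB of the group (8.60 and 8.31 for MYC, 7.49 and 7.52 for MYB) and the highest CCND1 (12.02 and 11.97). The fit with a single spread per gene takes no account of this, and leaving out each E2+P4 array kept the E2+MPA minus E2+P4 calls of MYB (-1.18 to -0.96) and MYC (-0.67 to -0.53). Without replicates 4 and 5 together the differences were -1.05 for MYB (adjusted p = 2.17e-06) and -0.64 for MYC (adjusted p = 4.05e-05).

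**Figure D3:**
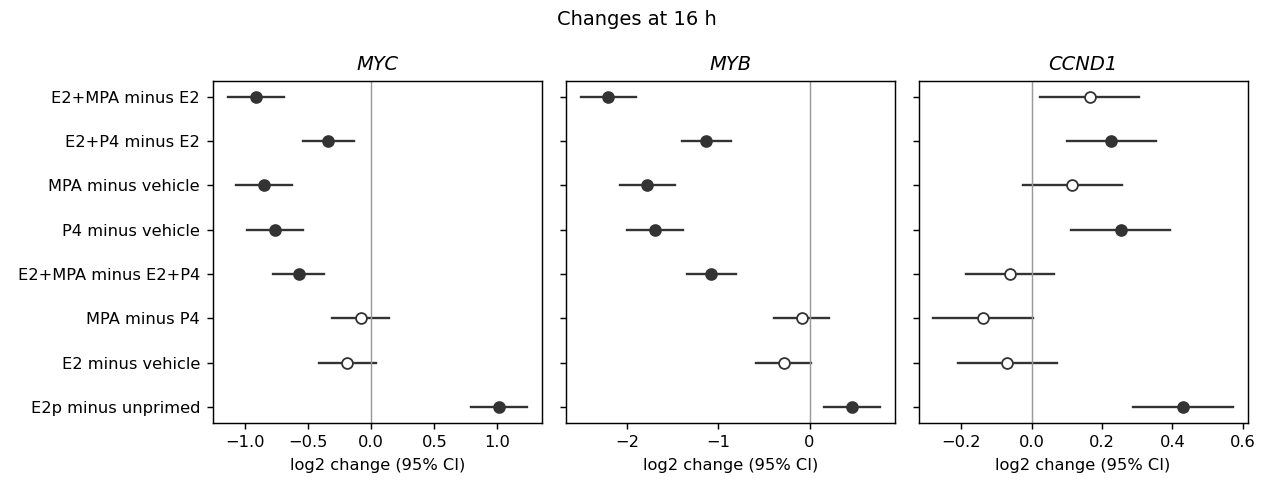
Log2 changes at 16 h with 95% confidence intervals (horizontal axes, a different range per gene) for the comparisons named at the left; filled circles have an adjusted p of at most 0.05 and open circles do not. E2+MPA minus E2+P4 lies at -0.58 for MYC and -1.08 for MYB, whereas MPA minus P4 without fresh E2 lies at -0.09 for both.

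Ordered by level, MYC ran from the 0 h vehicle (9.44), the 16 and 8 h vehicles (9.20 and 9.09), E2 (9.01), the 4 h vehicle (8.76) and E2+P4 (8.67) through the progestin overlays (8.56 to 8.28) to unprimed cells (8.19) and E2+MPA (8.10). Of the 13 pairs of neighbours in this order, 11 had a 95% interval of the difference that included 0, and the 2 that did not were the 0 and 16 h vehicles and E2 and the 4 h vehicle. MYB ran from the 0 and 16 h vehicles (9.34 and 9.32) over E2 (9.04) and unprimed cells (8.86) to P4 and MPA at 4 h (8.84 and 8.46), then E2+P4 (7.91), the 8 and 16 h progestins (7.89 to 7.54) and E2+MPA (6.83). For MYB, 10 of 13 neighbour intervals included 0, and the steps lay between P4 and MPA at 4 h, between MPA at 4 h and E2+P4, and between MPA at 16 h and E2+MPA. CCND1 ran from P4 at 16 and 8 h (11.99 and 11.96) over E2+P4 (11.90), MPA at 16 and 8 h and E2+MPA (11.86 to 11.84) and vehicle at 0, 16 and 8 h (11.81 to 11.73) to E2 (11.67), the 3 overlays at 4 h (11.48 to 11.36) and unprimed cells (11.31). For CCND1, 12 of 13 intervals included 0, the exception being E2 and the 4 h vehicle. These intervals are not corrected for the number of pairs.

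Among named genes with group means that ranged over at least 1 unit (1750 compared for MYC and MYB, 1751 for CCND1), the 5 most like each gene by Pearson's r over the 14 group means were listed. For MYC they were SSTR2, a somatostatin receptor (0.95), NRIP1, a corepressor of estrogen receptors (0.92), GAS6-DT (0.91), CA8 (0.90) and STC2, a stanniocalcin (0.89). For MYB they were ELP2, a subunit of Elongator (0.98), IFT70B, a protein of intraflagellar transport (0.98), CPT1C (0.98), PGAP1 (0.98) and MET, the receptor of hepatocyte growth factor (0.97). For CCND1 they were HR, a nuclear receptor corepressor (0.88), MDGA1 (0.86), GPR180 (0.85), MTSS2 (0.85) and SYT8 (0.84). The likeness describes 14 points that share their arrays.

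MYC works with MAX, and members of the MXD family compete for MAX and repress MYC sites. Of 15 measured MYC partners and antagonists, 3 rose and 4 fell with MPA at 16 h and 4 rose and 2 fell with P4 at 16 h, with a median change of 0.00 for MPA and 0.06 for P4 beside 0.02 and -0.01 over all clusters. Over all clusters 6.72% rose and 9.26% fell with MPA and 7.91% rose and 7.92% fell with P4 at 16 h. This and the following list counts at 16 h are to be read against these shares. The lists hold named genes only, whereas the 41374 tested clusters held 13466 named genes. Shares over named genes alone are not given here. The antagonist MXD1 rose by 1.38 ± 0.13 with MPA and by 1.54 ± 0.13 with P4 at 4 h (adjusted p = 5.14e-10 and 3.35e-11), and by 0.88 ± 0.13 and 1.2 ± 0.13 at 16 h. Other antagonists went the other way at 16 h, where MXI1 changed by -1.11 ± 0.11 with MPA and -1.12 ± 0.11 with P4 and MXD4 by -0.58 ± 0.08 and -0.74 ± 0.08, all called. WDR5, a chromatin cofactor that binds MYC, rose by 0.23 ± 0.08 with MPA and 0.41 ± 0.08 with P4. MAX itself, at -0.18 ± 0.09 and -0.23 ± 0.09, and the antagonist MNT, at 0.13 ± 0.09 and -0.03 ± 0.09, did not pass the test. After priming, which raised MYC, 1 member was higher and 2 were lower, the lower ones including MXD4 (-0.34 ± 0.08). Over all clusters 2.55% were higher and 4.95% lower after priming.

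MYC was lower at 16 h, and of 26 measured genes known to be induced by MYC, 7 rose and 3 fell with MPA and 8 rose and 1 fell with P4, with medians of 0.10 and 0.14 beside 0.02 and -0.01 over all clusters. The examples that rose were CDC25A, a phosphatase that activates cyclin-dependent kinases (0.64 ± 0.12 with MPA and 0.86 ± 0.12 with P4), and ODC1, which starts polyamine synthesis (0.57 ± 0.16 and 0.78 ± 0.16). IPO4, a nuclear import receptor, fell with both (-0.38 ± 0.08 and -0.32 ± 0.08). At 4 h 1 was higher and 5 were lower with MPA and 1 was higher and 3 were lower with P4. Over all clusters at 4 h, 4.16% were higher and 4.12% lower with MPA, and 4.55% and 3.35% with P4. The P4 members were PPAT, an enzyme of purine synthesis (-0.64 ± 0.10), GRWD1 (-0.48 ± 0.11), the nucleolar methyltransferase NOP2 (-0.33 ± 0.09) and, higher, TERT (0.35 ± 0.09). After priming 5 were higher and none lower by the test, where 2.55% of all clusters were higher and 4.95% lower. They were led by PPAT (0.38 ± 0.10) and UCK2, a pyrimidine salvage kinase (0.32 ± 0.06). With the 0 h vehicle as the control, the counts for P4 were 8 higher and 2 lower at 16 h and 0 higher and 7 lower at 4 h. That control was added after the data had been seen. The share of all clusters for it is not given here, so these counts cannot be weighed.

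Within the MYB family, MYBL1 followed the direction of MYB. It rose by 0.99 ± 0.09 after priming (adjusted p = 7.46e-10) and changed by -0.81 ± 0.09 with MPA and -0.49 ± 0.09 with P4 at 16 h (adjusted p = 2.61e-08 and 0.000161). MYBL2, a regulator of late cell cycle genes, rose by 0.34 ± 0.06 after priming and stood at 0.01 ± 0.06 with MPA and 0.07 ± 0.06 with P4 at 16 h, neither called. Of the 12 measured family members and cofactors, 0 rose and 3 fell with MPA and 0 rose and 2 fell with P4 at 16 h, where 16% and 15.8% of all clusters were regulated, with medians of -0.01 and 0.06 beside 0.02 and -0.01. LIN37, a subunit of the complex that MYBL2 joins, fell at all times with both progestins, by 0.59 with MPA and 0.73 with P4 at 16 h, and the coactivators EP300 and CREBBP of MYB did not pass at 16 h.

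Of 9 measured genes that are linked to MYB as targets, 2 rose and 4 fell with MPA and also with P4 at 16 h, with medians of -0.34 and -0.17 beside 0.02 and -0.01 over all clusters, of which 16% and 15.8% were regulated. BCL2, the inhibitor of apoptosis, changed by -2.74 ± 0.17 and -2.62 ± 0.17, and CD34 by -1.05 ± 0.18 and -1.33 ± 0.18. STAT5A and CCNE1 rose, by 1.43 ± 0.20 and 0.77 ± 0.12 with MPA and by 1.87 ± 0.20 and 0.89 ± 0.12 with P4. After priming 3 of the 9 rose and 1 fell, where 7.5% of clusters were regulated. KIT, a receptor tyrosine kinase, was among those that rose (adjusted p = 1.89e-08), with a mean of 6.23 in E2p cells and of 4.39 in unprimed cells, the unprimed mean lying under the 30th percentile of those arrays, so no size is given.

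The other D-type cyclins did not pass the test with either progestin at 16 h. CCND2 stood at 0.17 ± 0.17 with MPA and 0.12 ± 0.17 with P4, and CCND3 at 0.17 ± 0.10 and 0.20 ± 0.10. CDK4 stood at -0.09 ± 0.08 and -0.05 ± 0.08. Of 15 measured cyclins, kinases, inhibitors and their targets, 6 rose and 1 fell with MPA and 7 rose and 1 fell with P4 at 16 h, with medians of 0.17 and 0.20 beside 0.02 and -0.01 over all clusters. The E-type cyclins CCNE1 and CCNE2 rose by 0.77 ± 0.12 and 0.69 ± 0.09 with MPA and by 0.89 ± 0.12 and 0.87 ± 0.09 with P4, and E2F1, a transcription factor of S phase entry, rose by 0.99 ± 0.10 and 0.87 ± 0.10. RBL2, a pocket protein related to RB1, fell with both (-0.55 ± 0.09 each). CDK6 was lower after priming (-0.70 ± 0.13, adjusted p = 0.000223) and higher with P4 at 4 h (0.48 ± 0.13, adjusted p = 0.0134).

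Of 7 measured genes of cyclin D1 turnover and transport, 0 rose and 2 fell with MPA and 2 rose and 1 fell with P4 at 16 h, where 16% and 15.8% of clusters were regulated. FBXO4, an F-box protein, fell with both (-0.67 ± 0.15 and -0.49 ± 0.15), and GSK3B, a kinase that marks cyclin D1 for export from the nucleus, rose with P4 (0.25 ± 0.07). CCNDBP1, which binds D-type cyclins, was lower after priming (-0.63 ± 0.13). At 4 h it was higher with MPA (0.41 ± 0.13, adjusted p = 0.0474) and with P4 (0.71 ± 0.13). At 16 h it passed with neither (-0.14 ± 0.13 and -0.01 ± 0.13).

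Of 16 measured steroid receptors and partner transcription factors, 7 rose and 6 fell with each progestin at 16 h, where 16% (MPA) and 15.8% (P4) of clusters were regulated. The estrogen receptor gene ESR1 fell with both, with a change of -2.07 ± 0.11 for MPA and -2.10 ± 0.11 for P4, as did FOXA1, with -1.29 ± 0.16 and -1.42 ± 0.16, and the progesterone receptor gene PGR, with -3.40 ± 0.13 and -3.05 ± 0.13. Among those that rose, JUN changed by 2.11 ± 0.27 with MPA and 2.27 ± 0.27 with P4. STAT5A changed by 1.43 ± 0.20 and 1.87 ± 0.20, and KLF9 by 1.10 ± 0.14 and 1.36 ± 0.14. At 4 h ESR1 was lower with MPA and P4 (-0.75 ± 0.11 and -0.72 ± 0.11). So were FOXA1 (-2.21 ± 0.16 and -1.98 ± 0.16) and PGR (-0.63 ± 0.13 and -0.51 ± 0.13). At that time MYB was called lower with MPA (-0.48, adjusted p = 0.0391) and not with P4 (-0.10, adjusted p = 0.797). Of the 8 luminal markers, 4 fell (ESR1, PGR, GATA3 and FOXA1) and 1 rose (KRT19) with each progestin at 16 h, and their summed linear signal was 10735 to 11458 with MPA and 11251 to 12107 with P4, against 15415 to 16370 with vehicle. Of 3 basal markers on the array KRT5 rose, by 1.46 ± 0.22 with MPA and 1.28 ± 0.22 with P4, KRT14 and MYLK did not pass, and the summed signal was 170.3 to 196.9 with MPA and 180.2 to 186.2 with P4, against 106.5 to 138.6 with vehicle. The part of these changes in those of MYC, MYB and CCND1 was not tested.

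**Figure D4:**
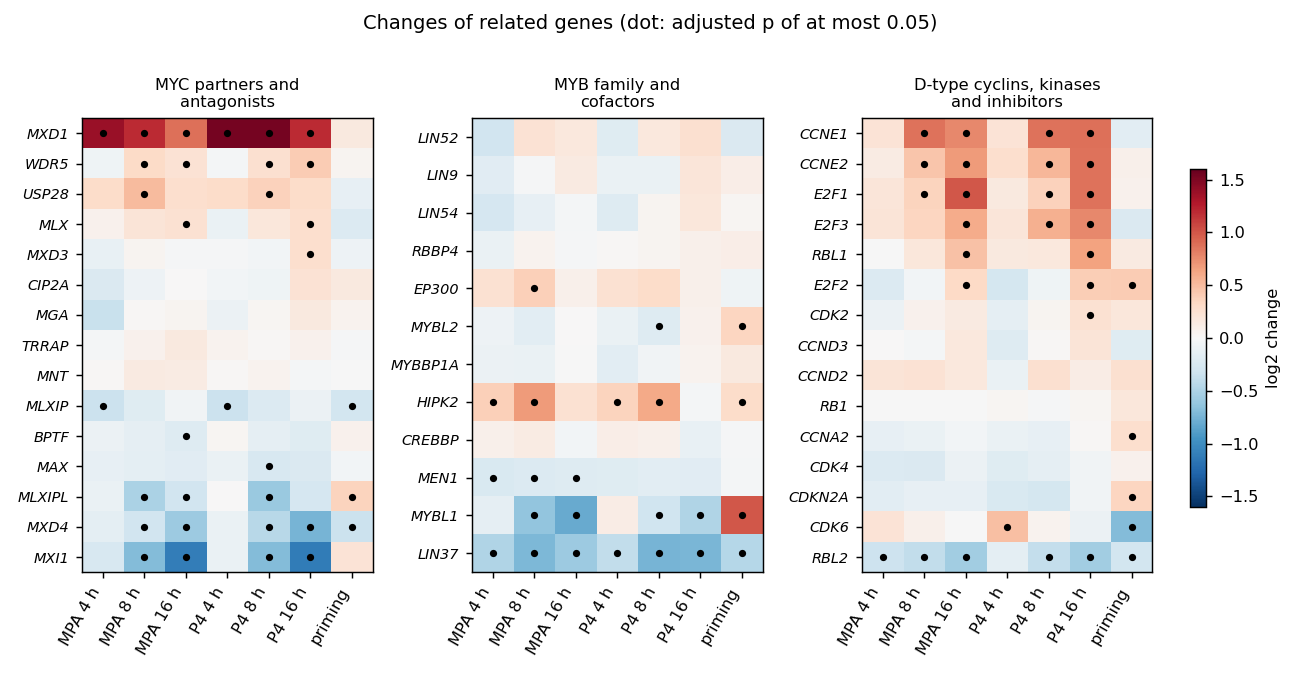
Log2 changes (colour, red higher and blue lower, scale cut at 1.6 either way) of measured MYC partners and antagonists, MYB family members and cofactors, and D-type cyclins with their kinases and inhibitors, with rows ordered by the P4 change at 16 h, in 7 comparisons: MPA and P4 each against vehicle of the same length, and priming. Black dots mark an adjusted p of at most 0.05; MXD1 is higher at all progestin times, MYBL1 is lower at 8 and 16 h and LIN37 at all progestin times, and CCND2 and CCND3 carry no dot.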

How the data were processed

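Total RNA of 44 ZR-75-1 samples was labelled and hybridised to Affymetrix Gene ST arrays. The authors processed the arrays with RMA, and the deposited table holds log2 values per transcript cluster (53617 clusters, 0 missing values). The submitters' processing notes list RMA and limma but no versions. RMA makes arrays alike in distribution, so a shift of all transcripts would not be seen. Labels and methods give the array as Gene 1.0 ST, whereas cluster identifiers matched the Gene 2.0 ST annotation, and gene names rest on that match. Clusters above the 30th percentile of their array on at least 3 arrays were tested (41374). Means of all 14 groups were fitted with limma 3.58.1 in R 4.3.3 (30 residual degrees of freedom), with the two-sided Bayesian moderated t-statistic and Benjamini-Hochberg correction over all clusters. The number of arrays limits the precision. The fit was tested on simulated data. Alternatives were no filter, fits of the compared arrays alone, array weights, the interquartile range as a covariate, other normalizations, other vehicle controls, a replicate block and leaving out arrays. The members and gene lists were chosen with earlier results of these data known. Genes named were the 3 members, the 5 genes most like each, and genes picked from each list, besides members of the partner and family lists. The picks came from up to 3 called members of largest change in each direction in priming, P4 at 4, 8 and 16 h and MPA at 16 h. Not all of these are named. Among those left out were BOP1, higher with MPA at 16 h (0.61), and POLR3G, lower with P4 at 8 h (-0.82). Values of ESR1, MXD1 and other named list members in further comparisons were added afterwards. Promoter letters come from RefSeq (GRCh38.p14). List genes without a named cluster were not analysed here.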

Additional observations from a re-analysis of the deposited data

Results flagged for a closer look

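The results below were picked out because the effect of a progestin differed between times, or the distance between the progestins differed with fresh E2, by a test of the difference itself. The effect of P4 on MYB was -1.59 at 16 h against 4 h and -1.13 at 8 h against 4 h, and that of MPA was -1.30 and -0.92. Part of these differences lies in the vehicle, with MYB means of 8.94, 9.13 and 9.32 at 4, 8 and 16 h. The 16 h differences of MYB passed the test under every alternative, arrays left out included, and so did the P4 difference at 8 h. The MPA difference at 8 h was lost in a fit of the compared arrays alone (adjusted p = 0.0967) and without replicate 2 of MPA at 4 h, replicate 1 or 3 of MPA at 8 h or replicate 1 of vehicle at 4 h (adjusted p between 0.0537 and 0.068).

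The effect of P4 on CCND1 was 0.37 at 16 h against 4 h (adjusted p = 0.0134) and 0.35 at 8 h against 4 h (adjusted p = 0.0477). The first was kept with any 1 array left out (adjusted p between 0.00989 and 0.0488) and lost in a fit of the compared arrays (adjusted p = 0.149) and with equal medians (adjusted p = 0.0587). The second was lost on leaving out 10 of the 12 arrays in turn, the exceptions being replicate 3 of P4 at 8 h and replicate 1 of vehicle at 4 h (adjusted p between 0.06 and 0.138 in the 10). It was also lost with no filter (adjusted p = 0.0782), in a fit of the compared arrays (adjusted p = 0.26), with equal medians (adjusted p = 0.209) and with the replicate block (adjusted p = 0.0623). All 3 overlays, vehicle included, had a low CCND1 at 4 h.

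The difference of MPA from P4 in MYB was wider with fresh E2 than without by -0.99 (adjusted p between 0.000716 and 0.0259 on leaving out 1 array), a comparison added after its values had been seen, and it did not pass in a fit of the 4 groups alone (adjusted p = 0.182). Among the 5 arrays of E2+P4, no array stood apart in MYC, MYB or CCND1 by Dixon's test, and the groups of 3 arrays were not tested for this.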

How the results depend on the processing

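Across alternatives that left out no single array, 333 of 372 values of MYC, MYB and CCND1 in the main comparisons kept their direction and side of the threshold, 23 lost a call, 14 gained one and 2 reversed. The number of arrays limits these results. Each gene had 1 cluster, so no other cluster of the same symbol could be tried. Without the filter, the adjusted p was 0.0649 for MYB after priming (0.47) and 0.052 for MYB with MPA at 4 h (-0.48).

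Fitting the compared arrays alone lost MYB and CCND1 after priming (0.47 and 0.43), MYC with P4 at 4 h (-0.37), CCND1 with P4 at 8 and 16 h (0.23 and 0.25), MYC and MYB with MPA at 4 h (both -0.48), MYC and CCND1 with E2+P4 against E2 (-0.34 and 0.23) and MYC and MYB with E2+MPA against E2+P4 (-0.58 and -1.08). Array weights lost MYB with MPA at 4 h (-0.39), gained CCND1 with E2+MPA against E2 (0.19, adjusted p = 0.0126), MYC in the P4 time course (F = 57.8), MYC with P4 at 16 h against unprimed cells (0.24), MYC for vehicle at 8 h against 0 h (-0.36) and MYB for vehicle at 4 h against 0 h (-0.44), and reversed CCND1 for MPA minus P4 at 4 h (-0.0049) and for the P4 effect with against without fresh E2 (0.031). The interquartile range as covariate lost MYB with MPA at 4 h (-0.41), gained CCND1 with E2+MPA against E2 (0.22) and MYC for vehicle at 8 h against 0 h (-0.38) and reversed MYC with E2+MPA against unprimed cells (0.0090). Equal medians lost MYB after priming (0.42), MYC with P4 at 4 h (-0.36), CCND1 with P4 at 8 h (0.22) and CCND1 with E2+P4 against E2 (0.21), and reversed CCND1 for MPA minus P4 at 4 h (-0.024). Quantile normalization repeated gained CCND1 with E2+MPA against E2 (0.18) and reversed MYB for vehicle at 16 h against 0 h (0.0046) and MYC with E2+MPA against unprimed cells (0.020). The cause of these shifts was not tested.

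With the 16 h vehicle as control at all times, MYB with P4 at 4 h (-0.48) and CCND1 with MPA and P4 at 4 h (-0.37 and -0.38) passed. With the mean of all 4 vehicle groups, CCND1 passed with MPA at 4, 8 and 16 h (-0.32, 0.15 and 0.17) and P4 at 4 h (-0.33). With the 0 h vehicle, added after the data had been seen, MYB with P4 at 4 h (-0.50) and CCND1 with MPA and P4 at 4 h (-0.43 and -0.45) passed, while CCND1 with P4 at 8 and 16 h (0.16 and 0.19) did not.

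The replicate numbers did not pair the arrays, as same-numbered arrays of different groups had a mean correlation of deviations of 0.020 and differently numbered ones -0.010. With the replicate number as a block, MYC with E2+P4 against E2 was -0.28 (adjusted p = 0.0616, or 0.0522 without replicates 4 and 5 of E2+P4). The wider difference of MPA from P4 with fresh E2 passed for MYC with the block (-0.55, adjusted p = 0.0261), without replicates 4 and 5 (-0.55, 0.02), with array weights (-0.55, 0.00837), with the interquartile range (-0.51, 0.045) and with quantile normalization repeated (-0.53, 0.0424). The block also lost the P4 effect on CCND1 at 8 h against 4 h (0.35, adjusted p = 0.0623) and changed no other call of the 3 genes.

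With 1 array left out at a time, calls were lost for MYB after priming (0.41 to 0.51, without any 1 of the 6 arrays), MYC with P4 at 4 h (-0.46 to -0.31), MYB with MPA at 4 h (-0.56 to -0.38), CCND1 with P4 at 8 h (0.21 to 0.27) and 16 h (0.22 to 0.28), MYC with E2+P4 against E2 (-0.38 to -0.25), CCND1 with E2+P4 against E2 (0.20 to 0.27) and the F-statistic of CCND1 over the vehicle times (4.95 to 8.77), the last without replicate 2 or 3 of the 0 h or replicate 1 or 2 of the 4 h vehicle. The sign turned in values that had not passed, which were MYB with P4 at 4 h (-0.17 to 0.0015), MYB for MPA minus P4 at 16 h (-0.17 to 0.027), CCND1 for MPA minus P4 at 4 h (-0.083 to 0.075), MYB for vehicle at 16 h against 0 h (-0.072 to 0.026), and the fresh E2 difference of the MPA effect on MYC (-0.19 to 0.0095) and of the P4 effect on CCND1 (-0.058 to 0.013).

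Counts of regulated clusters that moved by over 1.5 times were, in the fit of all arrays, in the lowest setting (the compared arrays alone) and in the highest, 3102, 962 and 6258 for priming, 3270, 735 and 5636 for P4 4 h, 5493, 4748 and 8952 for P4 8 h, 6549, 3563 and 11510 for P4 16 h, 3427, 490 and 6449 for MPA 4 h, 6611, 2633 and 10439 for MPA 16 h, 6, 0 and 10 for MPA against P4 4 h, 1, 0 and 16 for MPA against P4 8 h, 5, 2 and 65 for MPA against P4 16 h, 2, 1 and 656 for fresh E2, 5738, 2971 and 7070 for E2+P4 against E2, 2517, 18 and 3675 for E2+MPA against E2+P4, 624, 0 and 1950 for vehicle 4 h against 0 h, 587, 352 and 1839 for vehicle 8 h against 0 h, 426, 0 and 2769 for vehicle 16 h against 0 h, 2775, 1224 and 5784 for P4 effect 16 h against 4 h, 898, 380 and 2233 for P4 effect 8 h against 4 h, 1812, 414 and 3654 for MPA effect 16 h against 4 h, 480, 82 and 1007 for MPA effect 8 h against 4 h, 4, 1 and 40 for P4 effect with fresh E2 against without, 97, 1 and 1022 for MPA effect with fresh E2 against without and 729, 24 and 1503 for MPA against P4 with fresh E2 against without. The highest came with array weights, or with the block for MPA against P4 4 h. Leaving out 1 array moved counts over 10 by over 1.5 times for MPA at 4 h (5326, without replicate 1 of the 4 h vehicle), vehicle at 4, 8 and 16 h against 0 h (338, 306 and 239, without replicate 2 of the 0, 8 and 0 h vehicle), the P4 effect at 8 h against 4 h (591, without replicate 1 of the 8 h vehicle), E2+MPA against E2+P4 (1122), the MPA effect with against without fresh E2 (22, or 205 without replicate 1 of E2+MPA) and MPA against P4 with against without fresh E2 (205, or 1139 without replicate 5 of E2+P4), the lowest of the last 3 without replicate 2 of E2+MPA.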
